A study of Homo sapiens with 6 samples.

Results

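The genes described here are 40 genes of glycolysis and of the hypoxia-inducible factor (HIF) pathway, taken by name from a table of 28563 genes, and all 40 were found in it. They comprise 2 glucose transporters, 15 genes of the glycolytic enzymes, 4 genes of lactate production and export, 3 regulators of glycolytic flux, 6 genes of HIF and oxygen sensing, and 10 HIF targets outside glycolysis. The RNA came from cells labelled HepG2, an established line from a human liver cancer, that were treated for 24 h with polydatin (PD), a glucoside of resveratrol, or with its solvent DMSO. Each group had 3 dishes with 1 library per dish. The labels give a dose of 336 µM PD, while the methods of the study name another dose. All dishes were kept in air with added CO2, and no dish was placed in low oxygen. The level of each gene was deposited as FPKM, the fragments counted on a gene per kilobase of its exons and relative to the total of the library.

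Glycolysis splits glucose into pyruvate in a chain of cytosolic enzymes, most of which have several isozymes encoded by separate genes. Lactate dehydrogenase then turns pyruvate into lactate, whereas pyruvate that enters mitochondria is oxidised by pyruvate dehydrogenase. HIF is a transcription factor of an oxygen-labile alpha subunit and a stable beta subunit. In oxygenated cells prolyl hydroxylases mark the alpha subunit for destruction through VHL, and in low oxygen HIF binds hypoxia response elements and raises most glycolytic genes together with genes for blood vessel growth, pH control and mitophagy. Because HIF activity is set mainly by the stability of the alpha protein, transcript levels do not measure it.

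The 3 DMSO libraries held 16763318 to 17274927 counted fragments each, and the 3 PD libraries 16308476 to 18071632. In this bulk RNA, fewer cells of a type and less RNA per cell cannot be told apart. The label HepG2 was checked against 19 hepatocyte and HepG2 markers, of which 9 were in the table and the others were not analysed here. Only CPS1 and RBP4 reached 1 FPKM in any library, and APOA1, SERPINA1, FGA, FGG, TF, AMBP and HNF4A were at or near 0, so that the markers went against the label. The summed level of the list was 222 to 229 FPKM in DMSO and 107 to 113 FPKM in PD, nearly all of it CPS1, the first enzyme of the urea cycle, and 0.634 to 1.89 FPKM over all 6 libraries without CPS1. Fibroblast markers, 5 of 8 in the table, summed to 4.52 to 5.40 FPKM in DMSO and 4.82 to 5.09 FPKM in PD. Endothelial markers, 5 of 6 in the table, stayed at or below 0.138 FPKM in sum, and blood cell markers, 4 of 7, at or below 1.197 FPKM. The part of cell identity in the results below was not tested.

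HIF recognises a short core, ACGTG or GCGTG, within its response element, and 4 promoters are shown because results below turn on their genes. The sequences are the 250 bases before the RefSeq start in build GRCh38.p14, read 5′ to 3′ on the strand of the gene, and capitals mark ACGTG and GCGTG on either strand, which read CACGT and CACGC on the opposite strand. ALDOC lies at chr17:28576896-28577145 on the minus strand, LDHA, the first of 2 windows, at chr11:18394313-18394562 on the plus strand, PGK1 at chrX:78103998-78104247 on the plus strand and CA9 at chr9:35673678-35673927 on the plus strand. Part of the ALDOC window and the last bases of the LDHA window fall within first exons in GENCODE release 44, which starts these genes slightly upstream.
ALDOC: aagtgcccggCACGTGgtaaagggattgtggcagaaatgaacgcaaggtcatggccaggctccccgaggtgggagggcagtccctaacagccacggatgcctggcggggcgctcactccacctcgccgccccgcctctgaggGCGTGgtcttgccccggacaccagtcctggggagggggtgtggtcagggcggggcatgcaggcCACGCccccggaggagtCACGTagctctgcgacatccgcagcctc
LDHA: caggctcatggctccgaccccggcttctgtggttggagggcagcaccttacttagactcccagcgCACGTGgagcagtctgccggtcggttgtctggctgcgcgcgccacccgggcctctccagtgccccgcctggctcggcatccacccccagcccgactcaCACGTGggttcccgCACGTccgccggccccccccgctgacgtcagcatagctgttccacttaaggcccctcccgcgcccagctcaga
PGK1: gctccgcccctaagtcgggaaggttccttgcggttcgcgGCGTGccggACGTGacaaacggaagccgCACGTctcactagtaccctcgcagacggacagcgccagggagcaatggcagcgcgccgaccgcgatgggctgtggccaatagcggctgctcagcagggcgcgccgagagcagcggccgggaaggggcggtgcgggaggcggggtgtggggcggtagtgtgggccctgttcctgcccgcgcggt
CA9: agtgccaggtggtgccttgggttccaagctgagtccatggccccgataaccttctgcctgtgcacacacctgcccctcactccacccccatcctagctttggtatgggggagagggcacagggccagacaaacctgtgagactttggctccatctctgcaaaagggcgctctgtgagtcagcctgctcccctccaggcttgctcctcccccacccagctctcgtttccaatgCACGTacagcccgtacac

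The ALDOC window held 3 matches of ACGTG and 2 of GCGTG, the LDHA window 5 of ACGTG, the PGK1 window 2 of ACGTG and 1 of GCGTG, and the CA9 window 1 of ACGTG. The run CACGTG, seen in ALDOC and LDHA, holds ACGTG on both strands and was counted as 2 overlapping matches. RefSeq windows were found for 35 of the 40 genes, and those of SLC2A3, SLC16A1, VEGFA, NDRG1 and VHL were missing. ACGTG occurred in 24 of 64 windows of these genes (37.5%), compared with 6501 of 35116 windows of all genes (18.5%). It occurred in 13 of 35 windows of the genes that were higher in PD (37.1%) and in 4 of 12 windows of those that were lower (33.3%). Some genes have several windows, and counted by gene it occurred in at least 1 window of 21 of 35 genes (60%), beside 21.7% of all genes, in 11 of 15 genes that were higher (73.3%) and in 4 of 9 that were lower (44.4%). A gene with more windows has more places for a match. The numbers of windows differed, with 35 over the 15 higher genes, 12 over the 9 lower genes and 35116 over 27305 genes in all. Either core, ACGTG or GCGTG, occurred in 39 of the 64 windows (60.9%), beside 43.2% of windows of all genes. By gene either core occurred in 30 of 35 (85.7%), beside 47.4% of all genes. It occurred in all 15 genes that were higher and in 7 of 9 that were lower (77.8%). The difference between the higher and the lower genes was not tested. Since the 40 genes were listed in part as HIF targets, a share above that of all genes may come from the choice of genes. The match is a description of the letters in the window and not of binding.

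Levels of the 40 genes ranged from 0 FPKM for CA9 in PD libraries to 919 FPKM for ENO1 in a DMSO library, as shown in the plot of levels by library. To compare PD with DMSO, log2(FPKM + 1) was fitted by limma over 14400 genes whose mean reached 0.5 FPKM, and a gene was called higher or lower at a Benjamini-Hochberg adjusted p of at most 0.05. Fold changes on this scale understate the change of genes with low FPKM. Of the 40 genes, 38 were tested, and SLC2A3 and CA9 were below the minimum. ANKRD37 and EGLN3 passed it only through PD, as their DMSO means were under 0.5 FPKM. In PD, 16 were higher, 11 were lower and 11 were not called. The called genes were thus 27 of 38 (71.1%), beside 58.1% of all tested genes, with 31.9% higher and 26.2% lower. Only ALDOC also reached 2-fold, a threshold passed by 3.61% of all tested genes, with 2.04% higher and 1.57% lower. limma voom on the fragments behind the FPKM, used as an alternative, called 62.7% of 15067 genes, and 11.5% at 2-fold. The groups did not overlap for 30 of the 38 genes, beside 65.4% of all tested genes, and 6 of the 38 changed by at least 1.5-fold, beside 17.0% of all tested genes.

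**Figure D1:**
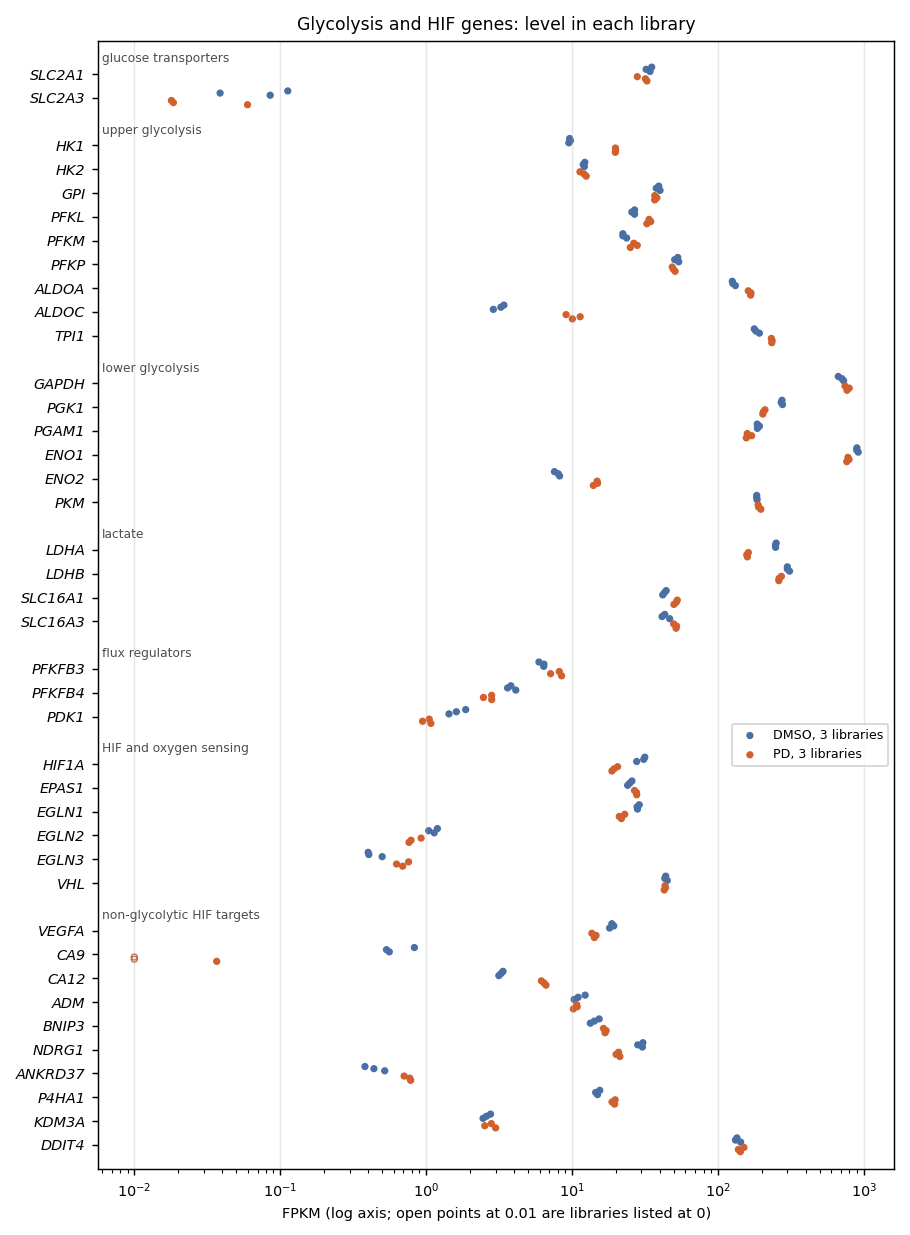
Level of each of the 40 genes in FPKM (log axis) in the 3 DMSO libraries (blue) and the 3 PD libraries (orange), 1 point per library, grouped by role; open points at 0.01 stand for libraries listed at 0. ENO1 and GAPDH lie near the top of the range, CA9 is listed at 0 in 2 PD libraries, and ALDOC, HK1, ENO2 and CA12 lie higher in all PD libraries than in any DMSO library.

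Glucose enters the cell through facilitative transporters, and of the 2 listed ones only SLC2A1 passed the minimum. SLC2A1, which encodes GLUT1, was at 35.2, 32.3 and 34.3 FPKM in DMSO and at 28.1, 32.0 and 32.7 FPKM in PD. These ranges overlapped, and the log2 fold change was -0.13 (95% interval -0.28 to 0.01, limma adjusted p = 0.11). It became called as lower when libraries were rescaled to their upper quartile (adjusted p = 0.044) and with limma voom on fragments (adjusted p = 0.030). SLC2A3, which encodes GLUT3, did not exceed 0.113 FPKM in any library, with 25 fragments over the DMSO libraries and 10 over the PD libraries. The ratio of PD to DMSO was 0.394 (95% exact interval 0.169 to 0.850, counting error only).

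In the first stage of the pathway, from hexokinase to triosephosphate isomerase, 6 of 9 genes were higher in PD, none was lower and 3 were not called, with a median log2 fold change of 0.33, beside 0.01 for all tested genes. The called share was 66.7%, beside 58.1% of all tested genes, with 31.9% higher and 26.2% lower. ALDOC, a minor aldolase gene known mainly from brain, was at 3.42, 3.26 and 2.89 FPKM in DMSO and at 9.13, 11.4 and 10.1 FPKM in PD. Its mean rose from 3.19 ± 0.269 to 10.2 ± 1.14 FPKM (SD, n = 3 libraries per group), a log2 fold change of 1.41 (SE 0.09, limma adjusted p = 1.5e-05). ALDOC lies on chromosome 17 at 28573115 to 28576948 of GRCh38, and its exons overlap an antisense transcript. Since the counting is not stated to have used strand, reads of overlapping genes cannot be separated.

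HK1, the hexokinase expressed in most tissues, was at 9.66, 9.78 and 9.54 FPKM in DMSO and at 19.90, 19.96 and 19.85 FPKM in PD. All PD libraries lay far above the DMSO libraries, with a ratio of 2.06 in FPKM and a log2 fold change of 0.97 (SE 0.03, limma adjusted p = 2.9e-06), just under the 2-fold threshold on the tested scale. HK2, the hexokinase typical of tumours and a HIF target, was at 12.28, 11.96 and 12.17 FPKM in DMSO and at 11.4, 12.1 and 12.5 FPKM in PD. Its groups overlapped, and the interval of its log2 fold change was -0.12 to 0.09 (limma adjusted p = 0.79). The log2 ratio of HK2 to HK1 changed by -0.99 from DMSO to PD, without overlap between the groups. HKDC1, a related hexokinase domain gene added to place these genes, rose from 11.4 ± 0.599 to 14.999 ± 0.654 FPKM (n = 3, limma adjusted p = 0.00069).

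ALDOA, the main aldolase, was at 126, 127 and 132 FPKM in DMSO and at 162, 169 and 168 FPKM in PD. It rose by a log2 fold change of 0.37 (SE 0.03, limma adjusted p = 5.8e-05) while remaining most of the aldolase transcript in every library. TPI1, which interconverts the triose phosphates, was at 178, 182 and 193 FPKM in DMSO and at 233, 236 and 235 FPKM in PD, with a log2 fold change of 0.35 (SE 0.03, limma adjusted p = 0.00012). Both genes lay higher in each PD library than in each DMSO library. TPI1 shares exon sequence with SPSB2 on the other strand.

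Phosphofructokinase makes the committed step of glycolysis from liver, muscle and platelet subunits. PFKL, the liver subunit, was at 26.9, 25.8 and 26.9 FPKM in DMSO and at 33.8, 34.7 and 32.7 FPKM in PD, a log2 fold change of 0.33 (SE 0.04, limma adjusted p = 0.00022). PFKM, the muscle subunit, was at 22.4, 22.4 and 23.7 FPKM in DMSO and at 26.6, 28.1 and 25.2 FPKM in PD, a log2 fold change of 0.21 (SE 0.05, limma adjusted p = 0.0076). It overlaps SENP1 on the other strand. PFKP, the platelet subunit, was at 53.2, 50.7 and 54.0 FPKM in DMSO and at 48.7, 49.6 and 51.0 FPKM in PD. The PFKP groups overlapped by a single pair of libraries, with a log2 fold change of -0.08 (95% interval -0.16 to 0.01, limma adjusted p = 0.10). Rescaling called it as lower, with adjusted p = 0.031 by median-of-ratios factors and 0.023 by the upper quartile, as did leaving out DMSO replicate 2 (adjusted p = 0.048). GPI, the isomerase between the kinase steps, averaged 39.2 ± 1.19 FPKM in DMSO and 37.4 ± 0.751 FPKM in PD (n = 3), with a 95% interval of -0.15 to 0.02 for the log2 fold change (limma adjusted p = 0.15). It was called as lower only after upper quartile scaling (adjusted p = 0.036).

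In the second stage, from GAPDH to pyruvate kinase, 2 of 6 genes were higher in PD, 3 were lower and 1 was not called, with a median log2 fold change of -0.08. ENO2, the neuronal enolase, was at 7.60, 8.07 and 8.23 FPKM in DMSO and at 14.90, 14.99 and 14.04 FPKM in PD. This rise was the largest of the stage, with a log2 fold change of 0.80 (SE 0.05, limma adjusted p = 1.3e-05). PGK1, which makes the first ATP of the pathway, was at 276, 272 and 278 FPKM in DMSO and at 211, 205 and 204 FPKM in PD. It fell by 0.41 on the log2 scale (SE 0.03, limma adjusted p = 1.6e-05). PGAM1, the phosphoglycerate mutase, was at 187, 193 and 187 FPKM in DMSO and at 159, 171 and 157 FPKM in PD. It fell by 0.22 on the log2 scale (SE 0.04, limma adjusted p = 0.0019).

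ENO1, the main enolase and the most abundant of the 40 genes in DMSO by FPKM, was at 899.8, 897 and 919 FPKM in DMSO and at 781, 795 and 767 FPKM in PD. It fell by 0.21 on the log2 scale (SE 0.02, limma adjusted p = 0.00028), so that the main and the minor enolase gene moved in opposite directions. ENO3, the muscle enolase added for comparison, fell from 19.7 ± 0.765 to 15.7 ± 0.763 FPKM (n = 3, limma adjusted p = 0.0012). GAPDH, often used as a reference gene, was at 671, 709 and 729.7 FPKM in DMSO and at 746, 797 and 769.7 FPKM in PD. Its log2 fold change of 0.13 (SE 0.04, limma adjusted p = 0.023) was lost with no filter on low genes (adjusted p = 0.14) and under both other scalings (adjusted p = 0.10 by median-of-ratios factors and 0.12 by the upper quartile), and also without DMSO replicate 1, PD replicate 2 or PD replicate 3 (adjusted p from 0.060 to 0.076). PKM, the pyruvate kinase gene, averaged 185 ± 0.673 FPKM in DMSO and 193 ± 4.45 FPKM in PD (n = 3), with an interval of -0.01 to 0.12 for its log2 fold change (limma adjusted p = 0.12). GAPDH has 65 pseudogenes named after it in GENCODE release 44 and PGAM1 has 13, and how their reads were divided is not stated in the sources used here.

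**Figure D2:**
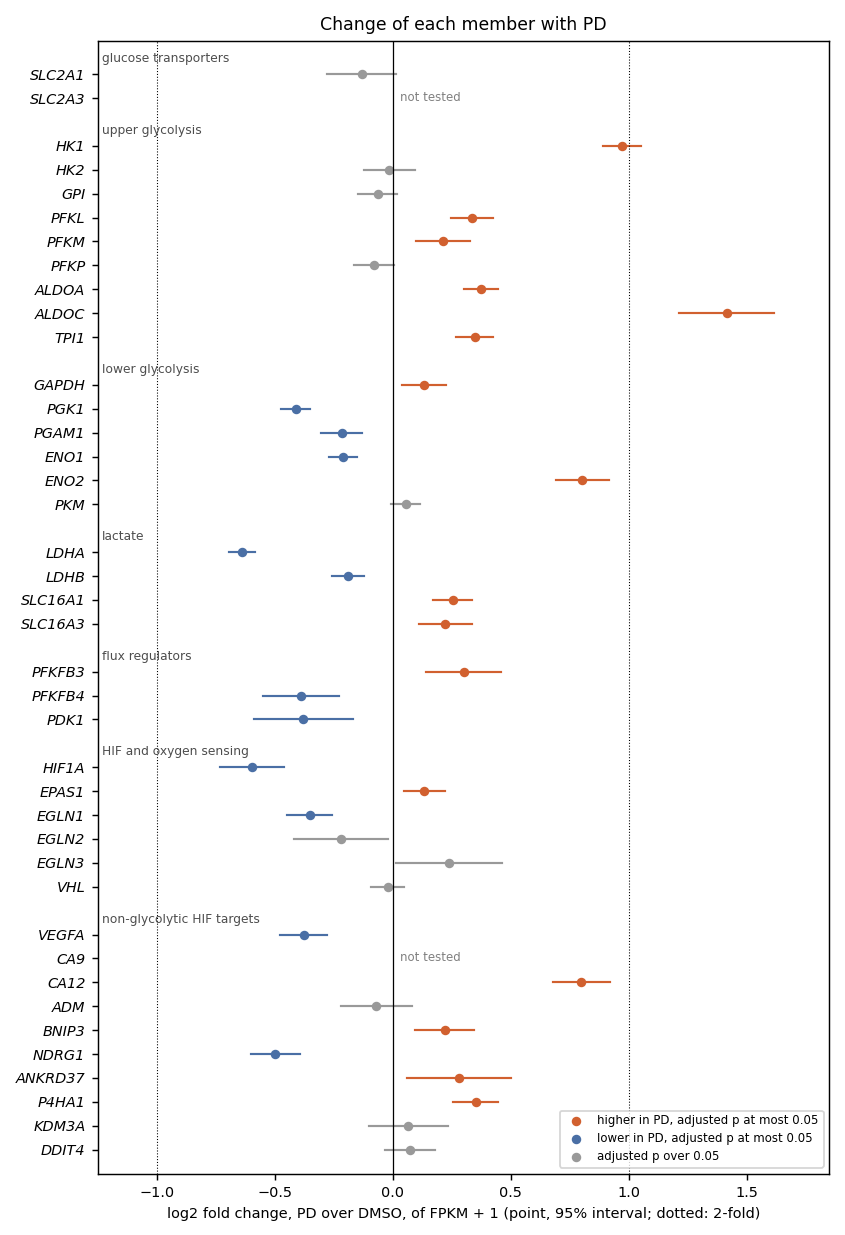
Log2 fold change of FPKM + 1, PD over DMSO, for each of the 40 genes by role (point) with its 95% interval from limma (line), coloured by the call at an adjusted p of at most 0.05; dotted lines mark 2-fold. ALDOC alone lies beyond 2-fold, 6 of the 9 genes from HK1 to TPI1 lie to the right of 0 as called, and LDHA and HIF1A lie farthest to the left. Of all tested genes, 31.9% were called higher. SLC2A3 and CA9 were not tested, and the GAPDH and EPAS1 calls were lost under both other scalings.

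When the FPKM of the listed genes were summed for each step, the PD libraries lay above the DMSO libraries in 6 of 11 steps, below them in 4, and overlapped them in 1. As single genes, 65.4% of all tested genes did not overlap between the groups, and no such share was computed for other sums. Hexokinase (HK1 and HK2) went from 21.8 ± 0.118 to 31.9 ± 0.583 FPKM (SD, n = 3), 46.4% above DMSO. Aldolase went from 131 ± 3.06 to 177 ± 4.84 FPKM (34.3% above), and triosephosphate isomerase was 27.1% above. After GAPDH the sums were lower in all steps but pyruvate kinase, namely phosphoglycerate kinase (-25.0%), phosphoglycerate mutase (-14.0%), enolase (-12.9%) and lactate dehydrogenase (-23.0%). The sums for phosphofructokinase, GAPDH and pyruvate kinase were 7.95%, 9.60% and 3.84% above DMSO. With upper quartile scaling the groups overlapped for these 3 steps, and with median-of-ratios scaling for GAPDH and pyruvate kinase. Each exact two-sided permutation test of 3 against 3 libraries gave p = 0.10, the smallest possible, except for glucose-6-phosphate isomerase (-4.51%, exact p = 0.2), where the groups separated under both other scalings with PD lower. Sums over genes depend on the exon lengths that the FPKM were made with, and the change within a step does so less than the level.

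**Figure D3:**
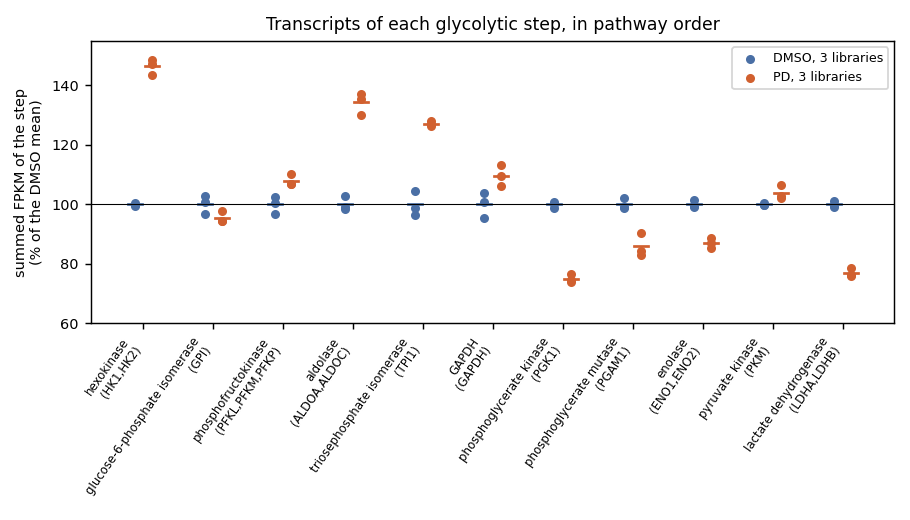
Summed FPKM of the listed genes of each glycolytic step in each library, as % of the DMSO mean, in pathway order; points are libraries (DMSO blue, PD orange, n = 3 each) and short bars are means. Hexokinase, aldolase and triosephosphate isomerase lie 27.1% to 46.4% above DMSO, and phosphoglycerate kinase to enolase and lactate dehydrogenase lie below it; GAPDH and pyruvate kinase lie slightly above it, but their groups overlapped under both other scalings, and phosphofructokinase under upper quartile scaling.

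At the fate of pyruvate, both lactate dehydrogenase genes were lower and both monocarboxylate transporter genes were higher in PD. Of all tested genes, 31.9% were called higher and 26.2% lower. LDHA, the classical HIF-induced subunit that favours lactate formation, was at 252, 249 and 249 FPKM in DMSO and at 162, 158 and 159.7 FPKM in PD. The libraries of each group lay close together and far from the other group, and LDHA fell by 0.64 on the log2 scale (SE 0.02, limma adjusted p = 3.2e-06), the largest decrease of the 38 tested genes on this scale, while PDK1 had the lower ratio in FPKM (0.625, beside 0.640 for LDHA). LDHB, the heart-type subunit, was at 300.1, 300.2 and 311 FPKM in DMSO and at 273, 263 and 262 FPKM in PD. It fell by 0.19 on the log2 scale (SE 0.03, limma adjusted p = 0.0010).

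SLC16A1, which encodes the lactate carrier MCT1, was at 44.3, 43.1 and 42.0 FPKM in DMSO and at 52.8, 51.9 and 50.1 FPKM in PD, a log2 fold change of 0.25 (SE 0.04, limma adjusted p = 0.00067). SLC16A3, which encodes the export carrier MCT4, was at 43.3, 41.5 and 46.8 FPKM in DMSO and at 49.9, 52.2 and 51.8 FPKM in PD, a log2 fold change of 0.22 (SE 0.05, limma adjusted p = 0.0056). Neither pair of groups overlapped. BSG, the chaperone that brings both carriers to the cell surface and a gene added to place them, rose from 280.1 ± 7.13 to 342 ± 4.14 FPKM (n = 3, limma adjusted p = 0.00011). SLC16A3 shares exon sequence with CSNK1D, and SLC16A1 and BSG each overlap an antisense gene.

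PFKFB3 and PFKFB4 set the level of fructose 2,6-bisphosphate, which activates phosphofructokinase, and both are HIF targets. PFKFB3 was at 5.95, 6.43 and 6.41 FPKM in DMSO and at 8.198, 7.151 and 8.502 FPKM in PD, a log2 fold change of 0.30 (SE 0.07, limma adjusted p = 0.0072). PFKFB4 was at 3.82, 3.62 and 4.13 FPKM in DMSO and at 2.82, 2.48 and 2.82 FPKM in PD, and fell by 0.39 on the log2 scale (SE 0.07, limma adjusted p = 0.0021). These genes of 1 family thus moved in opposite directions, without overlap in either. PFKFB2, another gene of the family, fell from 26.5 ± 0.160 to 23.0 ± 0.402 FPKM (n = 3, limma adjusted p = 0.0013) and had the highest FPKM of the family in both groups. PDK1, the kinase that keeps pyruvate dehydrogenase off and a HIF target, was at 1.87, 1.62 and 1.44 FPKM in DMSO and at 1.05, 0.947 and 1.08 FPKM in PD. It fell by 0.38 on the log2 scale (SE 0.09, limma adjusted p = 0.0081).

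To place PDK1, the other kinases of pyruvate dehydrogenase and the mitochondrial pyruvate carrier were read from the wider list. PDK3 rose from 2.09 ± 0.134 to 4.86 ± 0.0990 FPKM (limma adjusted p = 1.6e-05) and PDK2 from 2.59 ± 0.366 to 3.38 ± 0.136 FPKM (adjusted p = 0.021, n = 3 each). PDK4, by far the highest of the 4 kinases, was at 54.0 ± 1.84 FPKM in DMSO and 55.5 ± 2.99 FPKM in PD, with an interval of -0.07 to 0.15 for its log2 fold change (limma adjusted p = 0.52). MPC1, which imports pyruvate into mitochondria, was at 12.4, 14.7 and 13.5 FPKM in DMSO and at 27.9, 27.3 and 27.9 FPKM in PD, a log2 fold change of 0.98 (SE 0.06, limma adjusted p = 1.4e-05). Its partner MPC2 rose from 9.09 ± 0.0360 to 14.2 ± 0.809 FPKM (n = 3, limma adjusted p = 5.3e-05).

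Because several steps rest on more than one isozyme, the share of each gene in the summed FPKM of its family was computed for every library. The families here include HKDC1 and ENO3, which the sums by step left out. HK1 made up 29.1 ± 0.861% of hexokinase FPKM in DMSO and 42.4 ± 0.920% in PD (SD, n = 3), HK2 36.6 ± 0.303% and 25.6 ± 0.910%, and HKDC1 34.3 ± 1.11% and 32.0 ± 0.843%. The share of LDHA was 45.1 ± 0.568% in DMSO and 37.5 ± 0.297% in PD, the rest being LDHB. Of the minor isozymes some had a larger and some a smaller share in PD. ALDOC was at 2.43 ± 0.258% of aldolase FPKM in DMSO and 5.77 ± 0.502% in PD, and ENO2 at 0.854 ± 0.0301% and 1.80 ± 0.0368% of enolase FPKM, whereas ENO3 was at 2.11 ± 0.0712% and 1.94 ± 0.0576%. PFKFB4 was at 10.5 ± 0.656% of its family in DMSO and 8.04 ± 0.290% in PD, and PDK1 at 2.73 ± 0.442% and 1.59 ± 0.170%. PFKP remained the largest subunit share of phosphofructokinase, at 51.6 ± 0.320% in DMSO and 45.2 ± 1.45% in PD. The groups did not overlap in any of these shares. Of 10 paralog ratios on the log2(FPKM + 1) scale, 8 did not overlap between the groups (exact permutation p = 0.10 each, 0.125 after adjustment over the 10), and the ratios of SLC2A3 to SLC2A1 and of SLC16A3 to SLC16A1 did overlap (exact p = 0.2 and 0.8). As single genes, 65.4% of all tested genes did not overlap, and no such share was computed for ratios of other gene pairs. In log2 units the ratios changed by 1.04 for ALDOC to ALDOA, 1.02 for ENO2 to ENO1, 0.45 for LDHB to LDHA and -0.69 for PFKFB4 to PFKFB3.

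**Figure D4:**
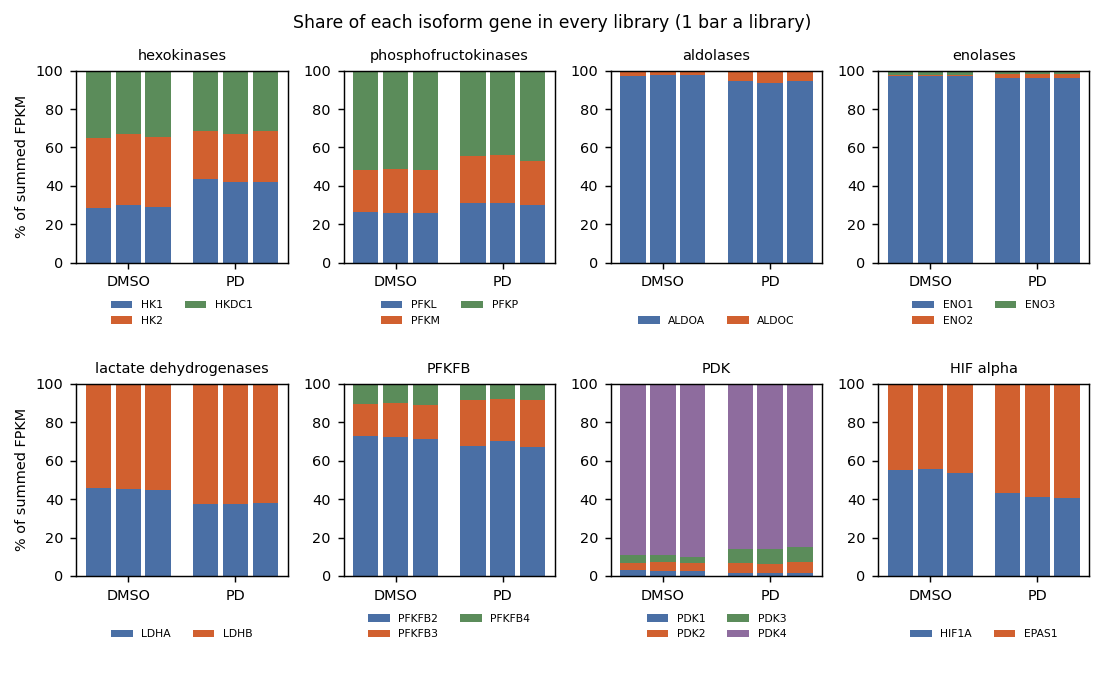
Share of each gene in the summed FPKM of its family (%), with 1 stacked bar per library, 3 DMSO bars to the left and 3 PD bars to the right in each panel. HK1 and LDHB take a larger share in all PD libraries, HK2 and LDHA a smaller one, and EPAS1 exceeds HIF1A in PD but not in DMSO.

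Among the genes of HIF and oxygen sensing, 1 of 6 was higher in PD, 2 were lower and 3 were not called. The called share was 50%, beside 58.1% of all tested genes, with 31.9% higher and 26.2% lower. HIF1A, the alpha subunit that drives most glycolytic HIF targets, was at 31.6, 31.1 and 27.8 FPKM in DMSO and at 20.6, 19.5 and 18.8 FPKM in PD. It fell by 0.60 on the log2 scale (SE 0.06, limma adjusted p = 0.00011), and every PD library lay below every DMSO library. EPAS1, which encodes HIF-2 alpha, was at 25.8, 25.0 and 24.1 FPKM in DMSO and at 26.9, 27.7 and 27.8 FPKM in PD. Its log2 fold change of 0.13 (SE 0.04, limma adjusted p = 0.018) was lost under median-of-ratios scaling (adjusted p = 0.051) and upper quartile scaling (adjusted p = 0.072), and without PD replicate 2 (adjusted p = 0.058) or PD replicate 3 (adjusted p = 0.062). The share of HIF1A in the FPKM of these alpha subunits was 54.7 ± 1.01% in DMSO and 41.6 ± 1.54% in PD (SD, n = 3), so that the order of the pair was turned. ARNT, the beta subunit, was at 10.96 ± 0.572 FPKM in DMSO and 10.9 ± 0.437 FPKM in PD, with a 95% interval of -0.13 to 0.12 (limma adjusted p = 0.94). HIF1A shares exon sequence with the antisense genes HIF1A-AS1 and HIF1A-AS3.

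EGLN1, the main prolyl hydroxylase of HIF alpha, was at 29.0, 28.0 and 28.2 FPKM in DMSO and at 23.0, 21.1 and 21.9 FPKM in PD. It fell by 0.35 on the log2 scale (SE 0.04, limma adjusted p = 0.00027), without overlap. EGLN2, another hydroxylase, was at 1.197, 1.043 and 1.138 FPKM in DMSO and at 0.925, 0.789 and 0.764 FPKM in PD, a log2 fold change of -0.22 (limma adjusted p = 0.060). EGLN3, the hydroxylase that HIF itself induces, was at 0.4012, 0.4053 and 0.5004 FPKM in DMSO and at 0.759, 0.628 and 0.692 FPKM in PD, with 164 and 265 fragments in all, and a log2 fold change of 0.24 (limma adjusted p = 0.066). Neither was called in the main test although the groups did not overlap, and limma voom on fragments called EGLN2 lower (adjusted p = 0.010) and EGLN3 higher (adjusted p = 0.0025). EGLN2 was also called as lower under median-of-ratios and upper quartile scaling (adjusted p = 0.045 and 0.042). EGLN2 overlaps RAB4B-EGLN2 and another gene on the same strand, so its low level and its change may depend on how shared reads were counted. VHL, which ubiquitinates hydroxylated HIF alpha, was at 44.1 ± 0.872 FPKM in DMSO and 43.4 ± 0.417 FPKM in PD (n = 3), with an interval of -0.09 to 0.05 for the log2 fold change (limma adjusted p = 0.55). HIF1AN, an asparaginyl hydroxylase that blocks HIF from its coactivators, rose from 8.73 ± 0.174 to 12.2 ± 0.114 FPKM (n = 3, limma adjusted p = 6.7e-05). The coactivator genes CREBBP and EP300 fell by 0.40 and 0.35 on the log2 scale (limma adjusted p = 0.00023 and 0.0010). Of the other components in the wider list, ELOB rose by 0.16 on the log2 scale (limma adjusted p = 0.0055). ELOC and CUL2 fell by 0.17 and 0.21 (limma adjusted p = 0.017 and 0.030), and RBX1 and CITED2 were not called.

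Among the HIF targets outside glycolysis, 9 of 10 were tested, of which 4 were higher in PD, 2 were lower and 3 were not called. The higher genes include ANKRD37, which passed the minimum of the test only through PD. The called share was 66.7%, beside 58.1% of all tested genes, with 31.9% higher and 26.2% lower. The targets of pH control went opposite ways. CA12, a carbonic anhydrase of the cell surface, was at 3.37, 3.27 and 3.16 FPKM in DMSO and at 6.18, 6.44 and 6.64 FPKM in PD, a log2 fold change of 0.80 (SE 0.05, limma adjusted p = 1.8e-05). CA9, the carbonic anhydrase most used as a hypoxia marker, was at 0.832, 0.536 and 0.560 FPKM in DMSO and was listed at 0 in PD replicates 1 and 2 and at 0.0367 FPKM in PD replicate 3. Its fragments were 55 over the DMSO libraries and 1 over the PD libraries, a ratio of PD to DMSO of 0.0179 (95% exact interval 0.000446 to 0.104, counting error only). The mean was under the minimum of the main test, and limma voom on fragments called it lower (adjusted p = 4.9e-08). That fit took genes with at least 10 fragments in at least 3 libraries, which CA9 met only through its DMSO libraries. The voom call is therefore not used as support. CA9 lies on chromosome 9 at 35673928 to 35681159 of GRCh38, and its exons overlap ARHGEF39 on the other strand.

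NDRG1, a stress-induced gene of growth arrest, was at 30.7, 28.3 and 30.4 FPKM in DMSO and at 20.9, 20.1 and 21.3 FPKM in PD. It fell by 0.50 on the log2 scale (SE 0.04, limma adjusted p = 7.2e-05). VEGFA, the growth factor of blood vessels, was at 18.8, 19.4 and 18.1 FPKM in DMSO and at 13.7, 14.6 and 14.3 FPKM in PD, and fell by 0.38 on the log2 scale (SE 0.04, limma adjusted p = 0.00023). In both genes every PD library lay below every DMSO library. P4HA1, a collagen prolyl hydroxylase subunit, was at 15.53, 14.56 and 14.99 FPKM in DMSO and at 19.8, 18.9 and 19.6 FPKM in PD, a log2 fold change of 0.35 (SE 0.04, limma adjusted p = 0.00026). P4HA2, its paralog in the wider list, rose from 3.604 ± 0.190 to 7.75 ± 0.605 FPKM (n = 3, limma adjusted p = 2.8e-05).

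BNIP3, a receptor for mitophagy, averaged 14.3 ± 1.01 FPKM in DMSO and 16.8 ± 0.353 FPKM in PD (n = 3), a log2 fold change of 0.22 (limma adjusted p = 0.010), and has 44 pseudogenes named after it in GENCODE release 44. ANKRD37, a gene that responds strongly to HIF in many cells, averaged 0.447 ± 0.0702 FPKM in DMSO and 0.755 ± 0.0415 FPKM in PD (n = 3), from 59 and 101 fragments. Its DMSO mean lay under the minimum of 0.5 FPKM, so ANKRD37 entered the main test only through PD, where it was higher. Its call (log2 fold change 0.28, limma adjusted p = 0.036) was lost in 5 of the 6 fits that left out a library, all but that without DMSO replicate 3 (adjusted p from 0.067 to 0.098). ADM, a vasodilator peptide, had an interval of -0.22 to 0.08 for its log2 fold change, KDM3A, a histone demethylase, -0.10 to 0.23, and DDIT4, an inhibitor of mTORC1, -0.03 to 0.18 (limma adjusted p = 0.38, 0.46 and 0.20). The groups overlapped for all of ADM, KDM3A and DDIT4.

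Set side by side, 11 of the 23 tested glycolysis genes were higher in PD, 7 were lower and 5 were not called, and their median log2 fold change was 0.05, with values from -0.64 to 1.41. For the 9 tested non-glycolytic HIF targets the median was 0.07, with values from -0.50 to 0.80. The difference between the medians was not tested, and both lists held genes called in each direction. Both medians depended on the setting, ranging from 0.01 to 0.07 for the glycolysis genes and from 0.03 to 0.11 for the other targets over the alternatives run. The median absolute log2 fold change was 0.25 for the glycolysis genes and 0.28 for the other HIF targets, beside 0.27 for all tested genes. The called share was 78.3% of the glycolysis genes and 66.7% of the non-glycolytic targets, beside 58.1% of all tested genes. Of the wider HIF targets, 9 of 23 tested genes were higher, 3 were lower and 11 were not called (52.2% called, beside 58.1% of all tested genes, median log2 fold change 0.11). Of the wider genes of glucose metabolism, 19 of 27 tested were higher, 2 were lower and 6 were not called (77.8% called, median 0.20). Of 9 tested further components of the HIF pathway, 2 were higher, 4 were lower and 3 were not called (66.7% called).

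**Figure D5:**
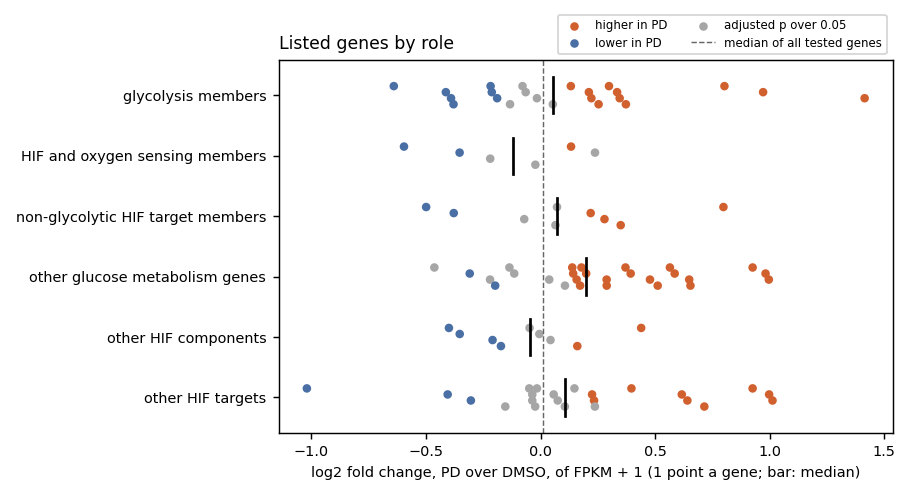
Log2 fold change of FPKM + 1, PD over DMSO, with 1 point per tested gene, for the listed genes by role and for the wider lists of the same pathways; bars are list medians, the dashed line is the median of all 14400 tested genes, and colours give the limma call. Glycolysis genes spread from -0.64 to 1.41 around a median of 0.05, non-glycolytic HIF targets from -0.50 to 0.80 around 0.07, and the other glucose metabolism genes have a median of 0.20.

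In the wider HIF list, 2 genes reached 2-fold on the log2(FPKM + 1) scale, and 5 did so with limma voom on fragments and with a pseudocount of 0.1, the others being P4HA2, PLOD1 and ANGPTL4, of which the last 2 are named here after their values were seen. STC2, a secreted glycoprotein of stress and calcium handling, was at 81.0, 80.0 and 81.1 FPKM in DMSO and at 37.9, 38.9 and 41.2 FPKM in PD. It fell by 1.02 on the log2 scale (SE 0.04, limma adjusted p = 3.1e-06). NT5E, the surface enzyme CD73 that makes adenosine, was at 3.997, 3.816 and 4.255 FPKM in DMSO and at 9.14, 8.28 and 10.0 FPKM in PD, a log2 fold change of 1.01 (SE 0.07, limma adjusted p = 3.0e-05). The groups of both genes were far apart, in opposite directions.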

How the data were processed

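RNA of 3 PD and 3 DMSO dishes was sequenced. The authors selected poly(A) RNA, used HISAT2 for alignment to hg38 and HTSeq 0.6.0 for counting, and deposited the values as FPKM. Their annotation release and strand setting are not given in the sources used here. They used DESeq2 for their own calls, which were not used here. Groups and replicate numbers came from the labels, and nothing says that the dishes are more than parallel cultures, so p-values measure only the spread between these libraries, which may be technical.

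limma 3.58.1 in R 4.3.3 was fitted with an intensity trend on log2(FPKM + 1) of 14400 genes (mean of 0.5 FPKM or more), with Benjamini-Hochberg adjustment. Whole fragments were recovered from the FPKM for all 28563 genes (tolerance 0.001 fragments) and used for depth, for counting intervals and in limma voom, which called 62.7% of 15067 genes. The GENCODE exon length gave whole fragments for 12879 genes. For the other 15684, the shortest length that gave whole fragments in every library was taken. CA9, SLC2A3, EGLN3 and ANKRD37 are among these, so their counting intervals rest on that choice. Exact permutation tests were two-sided (scipy 1.17.1 in Python 3.11.15). On simulated data with a dispersion of 0.003, limma called 195 of 200 changed genes and 5 unchanged genes among 14408. These totals were not split by the size of the change or the level of the gene. The simulation is therefore not used as support for calls of small changes or of genes with low FPKM. Correlations of same-numbered libraries were -0.03, -0.0046 and 0.09, so that the numbers did not pair them. Replicate libraries differed by more than sampling noise and were all counted.

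Values in every library are given for genes past 2-fold, for up to 3 called genes per role with the largest change and for both genes of each paralog ratio described. Genes of the wider lists are named where they pass 2-fold or place a listed gene. The 40 genes and all lists were chosen with earlier results of these data known. One marker of the cell type lists is not reported here. Symbols, overlaps and pseudogenes are from GENCODE release 44 on GRCh38, the build hg38 names. Of the listed genes, GPI, PFKP, ALDOA, PGK1, LDHB, SLC16A3, PFKFB4, HIF1A, EGLN1, EGLN2 and NDRG1 overlap another gene on the same strand. How reads shared with such genes were divided is not stated in the sources used here. Alternatives were a pseudocount of 0.1, no filter or a mean of at least 1 FPKM, median-of-ratios and upper quartile scaling, voom on fragments, a block for the replicate number, and 1 library left out at a time.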

Additional observations from a re-analysis of the deposited data

How the results depend on the processing

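No called gene of the 40 changed direction under any alternative run, and 24 of the 27 called genes kept their call in all 6 fits that left out a library, the exceptions being ANKRD37, EPAS1 and GAPDH. With the replicate number as a block, ANKRD37 was the only one of these calls lost (adjusted p = 0.070). All genes past the adjusted p then numbered 4414 higher and 3618 lower, beside 4588 and 3780 without the block. The replicate numbers do not pair the libraries, so the loss is not read as a weaker effect.

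Counts past 2-fold depended on the scale. They were 294 higher and 226 lower with the pseudocount of 1, 698 and 550 with a pseudocount of 0.1, and 1012 and 722 with voom on fragments. Among the 40 genes, 2 were past 2-fold and higher with a pseudocount of 0.1 and 2 with voom (ALDOC and HK1), beside 1 with the pseudocount of 1, and 1 (CA9) was lower with voom, beside 0. CA9 entered the voom fit only through its DMSO libraries. The median log2 fold change of the glycolysis genes was 0.0192 with no filter on FPKM, 0.0189 with median-of-ratios scaling and 0.00747 with upper quartile scaling, beside 0.0539, and 0.0351 to 0.0659 with a library left out (lowest without PD replicate 3). That of the non-glycolytic HIF targets was 0.0397 and 0.0313 with these scalings, beside 0.0720, and 0.0594 to 0.113 with a library left out (highest without PD replicate 2). Leaving out a library gave 289 to 318 genes higher and 221 to 243 lower past 2-fold. These scalings shifted all genes by -0.04 and -0.05 on the log2 scale, so changes of this size are not resolved. Depth limits SLC2A3, CA9, EGLN3 and ANKRD37, each with few fragments per library.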
